A study of Mus musculus with 24 samples.

Results

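The genes described here serve the uptake and breakdown of glucose and glycogen in muscle, or steps next to these. They were chosen by name: Slc2a4, Pygm, Phkg1, Pfkm, Aldoa, Fbp2, Bpgm, Pgam2, Eno3 and Pdk2, 10 genes in all. The platform annotation gave 15 probes to 9 of them and none to Phkg1, out of 20205 probes and 9834 genes with 1 symbol. Their choice used no measured value of these arrays, although earlier results of the same arrays were known when they were chosen.

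On 2-colour cDNA arrays, pooled RNA of Nur77-/- mice was set against pooled RNA of wild-type (Nur77+/+) mice in skeletal muscle, heart, brown adipose tissue, lung, spleen and testis. The design text gives pools of 7 mutant and 7 wild-type animals, while the labelling protocol names a control pool of 6. Each organ had 4 arrays, with the mutant pool in Cy5 (replicates 1 and 2) or in Cy3 (replicates 3 and 4). The sources used here do not give the strain, sex or age of the mice, which muscles were taken, or how the mutant allele was made. The arrays of an organ are therefore repeats of 1 comparison between pools, and their p-values measure the error between hybridisations and not the spread between animals.

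Skeletal muscle takes up glucose through the transporter GLUT4, stores it as glycogen, and releases it again through glycogen phosphorylase when it contracts. Glycolysis then carries the sugar to pyruvate, and pyruvate dehydrogenase kinases decide how much of that pyruvate is oxidised in mitochondria. Nur77, the orphan nuclear receptor encoded by Nr4a1, is known in rodent muscle as a factor that raises genes of glucose uptake, glycolysis and glycogen breakdown. It binds DNA as a monomer at an element called the NBRE.

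Of the 9 measured genes, Pdk2 was higher in skeletal muscle of the mutant pool, by 2.57-fold (log2 ratio 1.36 ± 0.22, SE, n = 4 arrays), in a comparison in which 5.58% of all rows passed the same test. That call was lost where muscle was fitted without the other organs (limma adjusted p = 0.590). The glucose transporter gene Slc2a4, the glycolysis genes Pfkm, Aldoa, Pgam2 and Eno3, and Fbp2, Bpgm and Pygm did not pass in any organ. Pygm and Eno3 had too few values in skeletal muscle to be tested there. Averaged over its probes, Aldoa was below 0 on all arrays of skeletal muscle, brown adipose tissue and lung without passing in any of them, and in brown adipose tissue its probes did not share that sign.

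The values are the deposited log2 ratios, taken as mutant over wild type on every array, so a positive value means more RNA in the mutant pool. That direction is the likely one, although the sources do not state it. A ratio gives no RNA level, so the labelled tissues could not be checked against the level of their markers, and in whole organs fewer cells of a type and less RNA per cell cannot be told apart. Of 360 combinations of probe and array for the 9 genes, 291 held a value. Between 13396 and 19455 probes per array had a value. The median absolute deviation of the ratios on an array was 0.96 to 1.83 in skeletal muscle, against 0.36 to 1.42 in the other organs. Array medians lay between -0.78 (skeletal muscle replicate 2) and 0.67 (skeletal muscle replicate 4). Signs are read against 0 below, without these medians subtracted unless that is stated. The wild-type channel of heart replicate 2 is labelled skeletal muscle. On that array the fast muscle fibre genes had a median ratio of -0.039, against -0.24 to -0.076 on the other heart arrays, and the heart results below include it.

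The targeted gene was checked first, although the sources used here do not say whether its probe lies in the deleted part. Nr4a1 was below 0 on 21 of 22 measured arrays. In skeletal muscle its ratio was -1.73 ± 0.31 (SE) on 3 arrays, and it passed the test as lower (limma adjusted p = 0.0022). In brown adipose tissue it was below 0 on 4 of 4 arrays at -1.14 ± 0.26, and in the other organs the fitted ratios were -0.67 for heart, -0.38 for lung, -0.75 for spleen and -0.24 for testis. None of these 5 organs passed (limma adjusted p from 0.167 to 1).

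Tests were made with limma in 1 model over all 24 arrays, with a mean for each organ and 1 term for the dye orientation, and p-values were adjusted by Benjamini-Hochberg over all rows of an organ. The model gave each row 1 error shared by all organs. That error did not follow the wider spread of the muscle arrays or the narrower spread of heart and brown adipose tissue. Standard errors and p-values may therefore be too small in muscle and too large in heart and brown adipose tissue. A test required values on 3 or more arrays of the organ, with the mutant pool in Cy5 on some and in Cy3 on others. Of 54 pairs of gene and organ, 47 could be tested. The test at an adjusted p of 0.05 was passed by 1 pair, Pdk2 in skeletal muscle, and 46 were not. In skeletal muscle 5.58% of all 11974 rows passed (3.36% as higher and 2.22% as lower), and 1 of the 7 tested genes did. No row passed in heart, brown adipose tissue or testis (0% in each), 0.0809% passed in lung and 1.53% in spleen, and 0 of the 9 genes passed in any of these 5 organs. At an unadjusted limma p of 0.05 the count was 3 of the 47 pairs, or 6.38%, against 20.2% of all rows in skeletal muscle, 15.4% in spleen, 6.62% in lung, 3.62% in testis, 2.05% in heart and 0.67% in brown adipose tissue.

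**Figure D1:**
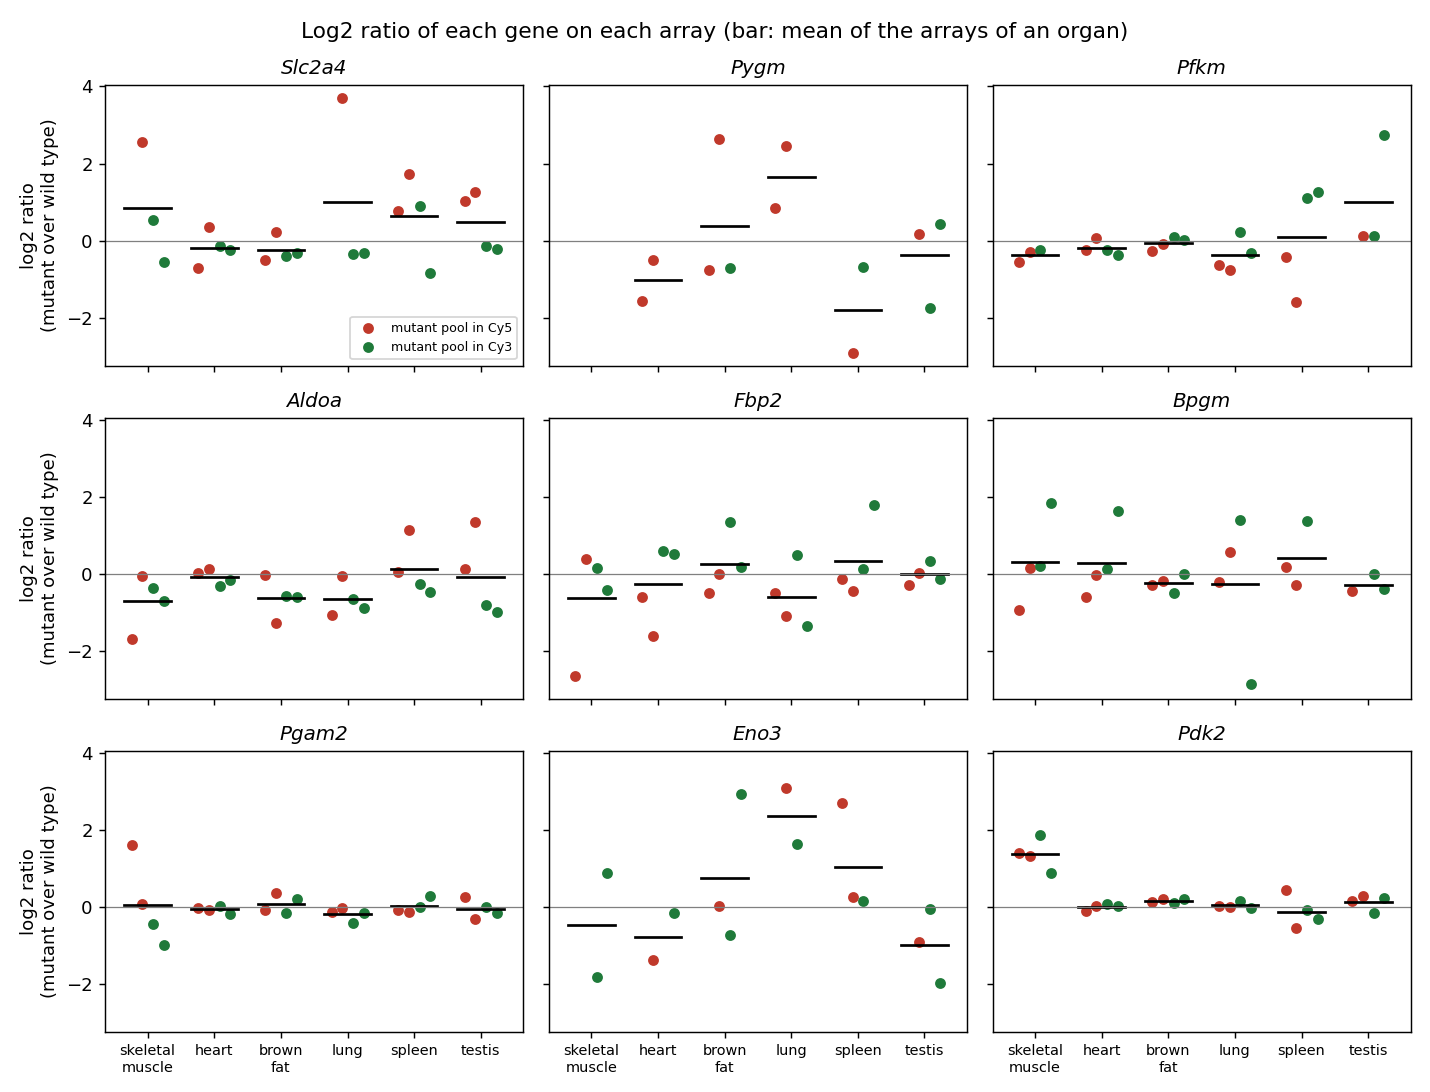
Each panel is 1 gene and each point the log2 ratio of the mutant over the wild-type pool on 1 array (vertical axis), by organ (horizontal axis), with the mutant pool in Cy5 in red and in Cy3 in green and the mean of the organ's arrays as a bar. The 4 skeletal muscle arrays of Pdk2 sit between 0.87 and 1.86, above all its other arrays, while Slc2a4 and Fbp2 show the colours apart in several organs.

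Pdk2 encodes pyruvate dehydrogenase kinase 2, which phosphorylates and switches off the pyruvate dehydrogenase complex and so keeps pyruvate from being oxidised. Its single probe had a value on all 24 arrays, and there was no other Pdk2 probe to compare it with. In skeletal muscle the Pdk2 ratio was 1.39, 1.32, 1.86 and 0.87 on replicates 1 to 4. All 4 arrays lay above 0 and above each of the 20 arrays of the other organs, which ranged from -0.55 to 0.42 with a median of 0.054. The fitted ratio was 1.36 ± 0.22 (SE, n = 4 arrays; 95% interval 0.91 to 1.81), a 2.57-fold higher Pdk2 signal in the mutant pool, and it passed the test (limma adjusted p = 0.00065).

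The value was of the same size in both dye orientations: the mean was 1.36 with the mutant pool in Cy5 and 1.37 with it in Cy3. Within the muscle arrays 95.4% of all tested rows had a smaller ratio than Pdk2 and 0.551% had a smaller p. The call was lost where arrays were also scaled to 1 spread (ratio 1.01, limma adjusted p = 0.0698), where muscle was fitted without the other organs (1.36 ± 0.46, adjusted p = 0.590) and where each organ was given its own weight estimated from rows complete on all arrays (adjusted p = 0.0733). If the sign of the arrays with the mutant pool in Cy3 were turned, the ratio would be -0.0048 (limma adjusted p = 0.995).

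In the other 5 organs the fitted Pdk2 ratios lay between -0.13 and 0.15. In brown adipose tissue the 4 arrays gave 0.11, 0.21, 0.10 and 0.19, all above 0 (as were 3.36% of all rows there), with a fitted ratio of 0.15 ± 0.22 that did not pass. Genes of fast muscle fibres had array medians of 0.84, 0.63, 0.41 and 0.52 on the same arrays, with 14 of 16 fitted ratios above 0 and 0 past the test, and their part in the Pdk2 values was not tested. In heart the Pdk2 arrays gave -0.11, 0.019, 0.078 and 0.022, and in lung 0.030, 0.004, 0.14 and -0.019. The intervals were -0.45 to 0.45 in heart and -0.41 to 0.49 in lung, so a shift as large as the muscle ratio lies outside both.

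The spleen and testis arrays of Pdk2 spread more widely. In testis the ratios were 0.16, 0.27, -0.17 and 0.23, and in spleen 0.42, -0.55, -0.071 and -0.32. Signs were mixed in both organs. The difference between organs was tested for 7553 rows measured in every organ, of which 0.98% passed. Pdk2 did not pass that test (limma F test, adjusted p = 0.0708), so the data do not establish that its muscle ratio differs from that of the other organs. Over the alternatives this adjusted p ranged from 0.033 to 1 and fell under 0.05 in 5 of 38, among them leaving out skeletal muscle replicate 4 (0.0406) or spleen replicate 1 (0.0386).

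Pdk2 was the gene of the 9 that passed the test in an organ, so its start is shown together with the sites found in the other genes. RefSeq (GRCm38.p6) gave 15 windows for 9 of the 10 genes, each running from 250 bases before to 50 bases after an annotated start, and none for Slc2a4. The NBRE, AAAGGTCA on either strand, was in 0 of these 15 windows and in 1.51% of the 32851 windows of all genes. Its inner part AGGTCA, which every NBRE match also holds, was in 4 of the 15 windows and in 16.3% of all. The E-box CACGTG, which reads the same on both strands and is bound by factors such as USF, MYC and ChREBP, was in 3 of the 15 windows and in 7.15% of all. The window of 1 annotated Pdk2 start, chr11:95041322-95041621 on the minus strand, is printed here 5′ to 3′ with its E-box in capitals, 126 bases before that start.
Pdk2: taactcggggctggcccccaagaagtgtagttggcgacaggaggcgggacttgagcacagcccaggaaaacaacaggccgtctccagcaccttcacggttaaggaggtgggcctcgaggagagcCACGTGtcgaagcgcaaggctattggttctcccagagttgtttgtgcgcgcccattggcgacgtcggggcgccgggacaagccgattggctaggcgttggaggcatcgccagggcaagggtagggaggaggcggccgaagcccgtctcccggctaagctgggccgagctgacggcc
The other annotated Pdk2 window, chr11:95040826-95041125 on the minus strand, held none of the 3 motifs. The remaining E-boxes and the AGGTCA sites (TGACCT where the site lies on the opposite strand) are shown in capitals with 10 bases on each side.
Pfkm E-box, chr15:98092443-98092468, plus strand: ttaagtatgcCACGTGaagtaagtaa
Fbp2 E-box, chr13:62858427-62858452, minus strand: ctatctgagtCACGTGgggtggggtt
Pfkm AGGTCA, chr15:98111869-98111894, plus strand: aatttctctcAGGTCAggtgcccttt
Eno3 AGGTCA, chr11:70657052-70657077, plus strand: ccagggccccAGGTCAggagcttttg
Aldoa AGGTCA, chr7:126799389-126799414, minus strand: gggggcctggTGACCTgcgggatgtg
The Aldoa site lies in a pair of overlapping windows of that gene and was counted in both. These matches describe the letters of the windows. The arrays held no measurement of binding.

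Other genes had a pattern of ratios close to that of Pdk2. Over the arrays, with the array median and the mean of the dye orientation removed, the genes with the most similar ratios among 6554 compared were Trex1 (Pearson r = 0.93 over 23 arrays), Dcaf13 (r = 0.91 over 24 arrays) and Sumf2 (r = 0.91 over 24 arrays). Trex1 encodes a DNA exonuclease of the cytosol, Dcaf13 a factor of ribosome assembly and ubiquitin ligases, and Sumf2 a protein of the endoplasmic reticulum. Their muscle ratios were 1.17, 2.26 and 0.86, and all 3 passed the test as higher there, as did 3.36% of all rows. They were picked for their likeness to Pdk2, so high muscle ratios follow from that choice and lend Pdk2 no support. These correlations are descriptions, because the arrays of an organ share the same pools.

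Markers of fibres and of other cell types were read in the same muscle comparison, in which 3.36% of all rows passed as higher. Of 16 tested genes of fast muscle fibres, 11 were above and 5 below 0, and 2 passed as higher, Neb (2.04), which encodes a giant protein of the thin filament, and Ryr1 (1.63), the calcium release channel. Myl1 (-0.58), Tnnc2 (-0.63), Tnni2 (-0.58) and Mylpf (-0.25) of the same list were below 0 on every measured array and did not pass. Ckm of that list was above 0 on 4 of 4 arrays at 1.11 ± 0.41 (SE) and did not pass either. The median of that list on the 4 arrays ran from -0.41 to 0.53. With the median of each array subtracted it was 0.96, 1.34, 0.38 and -1.10 on replicates 1 to 4. None of 10 tested genes of slow and cardiac muscle passed, and their array medians ran from -0.62 to 0.11. With the median of each array subtracted these were 0.121, 0.53, 0.105 and -1.31. Of 4 tested red blood cell genes, Slc4a1, the anion exchanger of the red cell membrane, passed as higher at 2.02. The other 3 had fitted ratios below 0, and the array medians of the list ran from -0.84 to 1.29. Of 7 tested brown fat genes, Cidea, a lipid droplet protein, passed as higher at 1.84. The list had 4 genes above and 3 below 0, with array medians from -0.66 to 0.29. The part of fibre type or of other cells in the Pdk2 ratio was not tested.

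**Figure D2:**
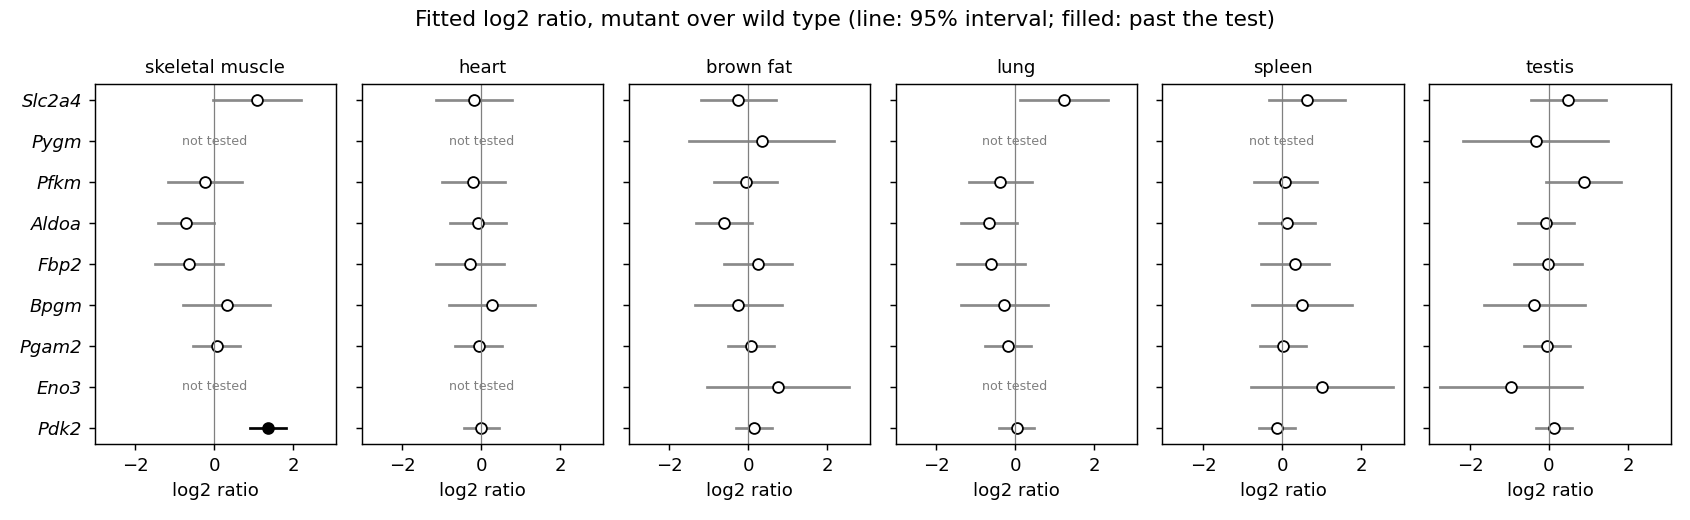
Fitted log2 ratios of the mutant over the wild-type pool (horizontal axis) for the 9 genes (rows) in 6 organs (panels), with 95% intervals as lines and a filled point where the limma test was passed. The filled point is Pdk2 in skeletal muscle at 1.36, and 7 pairs of gene and organ had too few arrays to test.

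Slc2a4 encodes GLUT4, the glucose transporter that insulin and contraction bring to the surface of muscle and fat cells. In skeletal muscle its ratio was 2.56 on replicate 2, 0.55 on replicate 3 and -0.56 on replicate 4, and replicate 1 had no value. The 3 arrays did not share a sign. The fitted ratio was 1.08 ± 0.53 with an interval from -0.033 to 2.19, which did not pass (limma adjusted p = 0.265).

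Lung gave the other large Slc2a4 ratio, and it rested on 1 array. Replicate 2 was at 3.71, against -0.35 and -0.32 on replicates 3 and 4, and the fit (1.24 ± 0.53) reached an unadjusted limma p of 0.0309 but an adjusted p of 0.669. In heart the arrays gave -0.70, 0.37, -0.13 and -0.25, and in brown adipose tissue, the other classical site of GLUT4, -0.49, 0.22, -0.40 and -0.32. In both organs 3 of 4 arrays were below 0 and the fitted ratios of -0.18 and -0.25 did not pass.

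In spleen Slc2a4 gave 0.76, 1.73, 0.90 and -0.85, and in testis 1.02, 1.27, -0.12 and -0.21. Both testis arrays with the mutant pool in Cy5 were above both arrays with it in Cy3. The mean of the Cy5 arrays was above that of the Cy3 arrays in all 6 organs, by the most in lung (3.71 and -0.34) and skeletal muscle (2.56 and -0.00325). The dye term was 1.35 ± 0.39 (limma adjusted p = 0.176) and did not pass. Of all 7553 rows tested for it, 0.225% did.

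Pygm encodes muscle glycogen phosphorylase, which releases glucose-1-phosphate from glycogen and whose loss causes McArdle disease in humans. Its single probe had a value on 12 of the 24 arrays and on 0 of the 4 skeletal muscle arrays, so no ratio can be given for the tissue in which the enzyme is best known. In brown adipose tissue the arrays gave -0.76, 2.64 and -0.70, and in testis 0.16, -1.75 and 0.44. Neither organ had a shared sign, and the fitted ratios of 0.34 ± 0.81 and -0.33 ± 0.81 did not pass.

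The remaining Pygm values were too few for a test. Both heart values were below 0 (-1.56 and -0.49) and both lung values above 0 (0.86 and 2.45), in each organ from arrays with the mutant pool in Cy5 alone. The spleen values were -2.91 and -0.68. Phkg1, the catalytic subunit of the phosphorylase kinase that activates this enzyme, was not measured.

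Pfkm encodes the muscle form of phosphofructokinase, the main control point of glycolysis. In skeletal muscle it was at -0.55, -0.28 and -0.24 on replicates 1 to 3, with no value on replicate 4. All 3 arrays were below 0, as were 14.2% of all rows there on every measured array. On replicate 2 Pfkm nevertheless lay above the median of that array, -0.78. The fitted ratio of -0.24 ± 0.45 did not pass (limma adjusted p = 0.824).

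In heart the Pfkm arrays gave -0.24, 0.069, -0.23 and -0.38, in brown adipose tissue -0.28, -0.078, 0.084 and 0.015, and in lung -0.63, -0.76, 0.22 and -0.32. None of these organs had a shared sign. In testis 3 of 3 arrays were above 0, at 0.12, 0.13 and 2.74, and the fit of 0.87 ± 0.45 (interval -0.064 to 1.81) rested on the last of them and did not pass (limma adjusted p = 1). On every measured array 9.68% of all testis rows were above 0. In spleen the sign followed the dye, with -0.41 and -1.6 where the mutant pool was in Cy5 and 1.11 and 1.25 where it was in Cy3.

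Aldoa encodes aldolase A, which splits fructose-1,6-bisphosphate and is the aldolase of adult muscle. Averaged over its probes, it was below 0 on all 12 arrays of skeletal muscle, brown adipose tissue and lung. In skeletal muscle the ratios were -1.69, -0.062 (above that array's median of -0.78), -0.38 and -0.71, and the fit was -0.71 ± 0.34 (limma adjusted p = 0.246). In lung they were -1.08, -0.057, -0.64 and -0.88, with a fit of -0.67 ± 0.34 (adjusted p = 0.784).

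In brown adipose tissue Aldoa was at -0.031, -1.28, -0.58 and -0.59, with a fit of -0.62 ± 0.34 (limma adjusted p = 0.9999). None of these 3 organs passed. A sign shared by every measured array below 0 was found for 14.2% of all rows in skeletal muscle, 11% in brown adipose tissue and 9.33% in lung. In heart the values were 0.011, 0.11, -0.32 and -0.17, in spleen 0.053, 1.14, -0.25 and -0.47, and in testis 0.13, 1.34, -0.81 and -0.99. In spleen and testis both arrays with the mutant pool in Cy5 were above both with it in Cy3.

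Aldoa had 3 probes, and 2 of them gave similar values. Probes 4656 and 10638 had the same sign on 18 of 23 shared arrays and differed by a median of 0.21 (r = 0.76 over these arrays, a description). Probe 7609 had 13 values, which ran from -4.08 to 3.44 and included the low muscle value of replicate 1. In lung probe 4656 averaged -0.71 ± 0.24 and probe 10638 -0.86 ± 0.30 (SD, n = 4 arrays each), with all 8 values below 0, while probe 7609 had 2 of 3 below 0. In skeletal muscle probes 4656 and 10638 averaged -0.55 ± 0.54 and -0.61 ± 0.53 and were below 0 on all 4 arrays each. The probes differed in brown adipose tissue: probe 4656 was below 0 on 4 of 4 arrays at a mean of only -0.23 ± 0.19, probe 10638 on 1 of 3, and probe 7609 on 3 of 3, with -3.87 on replicate 2. With the gene represented by the probe with most values, the lung ratio was -0.71 ± 0.22 and did not pass (limma adjusted p = 0.324).

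Genes of fast muscle fibres were read beside this. In lung 0.0809% of all rows passed in either direction. Of 15 fibre genes tested, 12 were below 0 and 3 above, and 3 passed as lower: Tnnc2 (-3.46) and Tnni2 (-1.99), the calcium-binding and inhibitory troponins of fast fibres, and Myoz1 (-1.96), a protein of the Z-disc. The median of the list was -1.36, against -0.011 for all rows, and -1.65 to -1.27 on the single arrays. Mylpf of the same list was above 0 on 3 of 3 arrays at 2.19 and did not pass, and Myl2, the ventricular and slow-fibre regulatory light chain, passed as higher at 1.61 (limma adjusted p = 0.0125). Myl2 belongs to the list of slow and cardiac muscle. Of 9 genes of that list tested in lung, 3 were above and 6 below 0, with a median of -0.27. The part of muscle RNA in the Aldoa values of lung was not tested.

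Fbp2 encodes the muscle form of fructose-1,6-bisphosphatase, which runs against phosphofructokinase on the way from lactate back to glycogen. In skeletal muscle the arrays gave -2.65, 0.39, 0.15 and -0.41, and the fit of -0.63 ± 0.41 did not pass (limma adjusted p = 0.416). Replicate 1 alone was far below 0. In lung the arrays gave -0.50, -1.08, 0.48 and -1.36, with a fit of -0.62 ± 0.41 that did not pass.

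In the other organs Fbp2 changed sign between arrays. Heart gave -0.61, -1.6, 0.60 and 0.52, brown adipose tissue -0.49, 0.003, 1.34 and 0.18, spleen -0.13, -0.46, 0.11 and 1.78, and testis -0.28, 0.027, 0.32 and -0.14. In heart and spleen both arrays with the mutant pool in Cy5 were below 0 and both with it in Cy3 above. The Cy5 mean was below the Cy3 mean in all 6 organs, and the dye term was -0.91 ± 0.34 (limma adjusted p = 0.270).

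The 2 Fbp2 probes differed. They had the same sign on 8 of 20 shared arrays, with a median difference of 1.46 and r = -0.31 (a description). Probe 8581 was below 0 on all 4 arrays in skeletal muscle (mean -0.25 ± 0.14, SD) and in heart (-0.23 ± 0.14), whereas probe 3878 ran from -5.23 to 1.03 in skeletal muscle. The low muscle value of the gene on replicate 1 came from probe 3878.

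Bpgm encodes bisphosphoglycerate mutase, which makes 2,3-bisphosphoglycerate, best known in red blood cells as the regulator of haemoglobin. In skeletal muscle the arrays gave -0.94, 0.16, 0.20 and 1.83, in heart -0.60, -0.039, 0.13 and 1.62, and in lung -0.21, 0.58, 1.4 and -2.86. The signs were mixed, and the fitted ratios of 0.31, 0.28 and -0.27 did not pass. In brown adipose tissue it was below 0 on all 4 arrays, at -0.29, -0.20, -0.50 and -0.007, with a fit of -0.25 ± 0.52 (limma adjusted p = 0.9999).

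In testis Bpgm was below 0 on 3 of 3 arrays, at -0.44, -0.01 and -0.40, as were 7.03% of all rows there on every measured array. In spleen it was at 0.18, -0.30 and 1.37. Neither organ passed. Its 2 probes had the same sign on 5 of 11 shared arrays.

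Pgam2 encodes the muscle form of phosphoglycerate mutase, which moves the phosphate of 3-phosphoglycerate. In skeletal muscle the arrays gave 1.6, 0.064, -0.45 and -0.98, so both arrays with the mutant pool in Cy5 were above 0 and both with it in Cy3 below, and the fit was 0.058 ± 0.28 (limma adjusted p = 0.935). In the other organs no array exceeded a size of 0.43. Heart gave -0.02, -0.073, 0.009 and -0.18, brown adipose tissue -0.074, 0.35, -0.16 and 0.20, and spleen -0.083, -0.13, 0.0035 and 0.29.

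In lung Pgam2 was below 0 on 4 of 4 arrays, at -0.14, -0.021, -0.43 and -0.16, with a fit of -0.19 ± 0.28 that did not pass, and in testis it gave 0.25, -0.31, -0.0065 and -0.16. The averages hide 2 probes that had opposite signs on 14 of 24 arrays. In lung probe 4439 was above 0 on all 4 arrays (mean 0.16 ± 0.15, SD) and probe 4879 below 0 on all 4 (-0.53 ± 0.24). In spleen the order was turned, at -0.33 ± 0.22 for probe 4439 and 0.37 ± 0.30 for probe 4879.

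**Figure D3:**
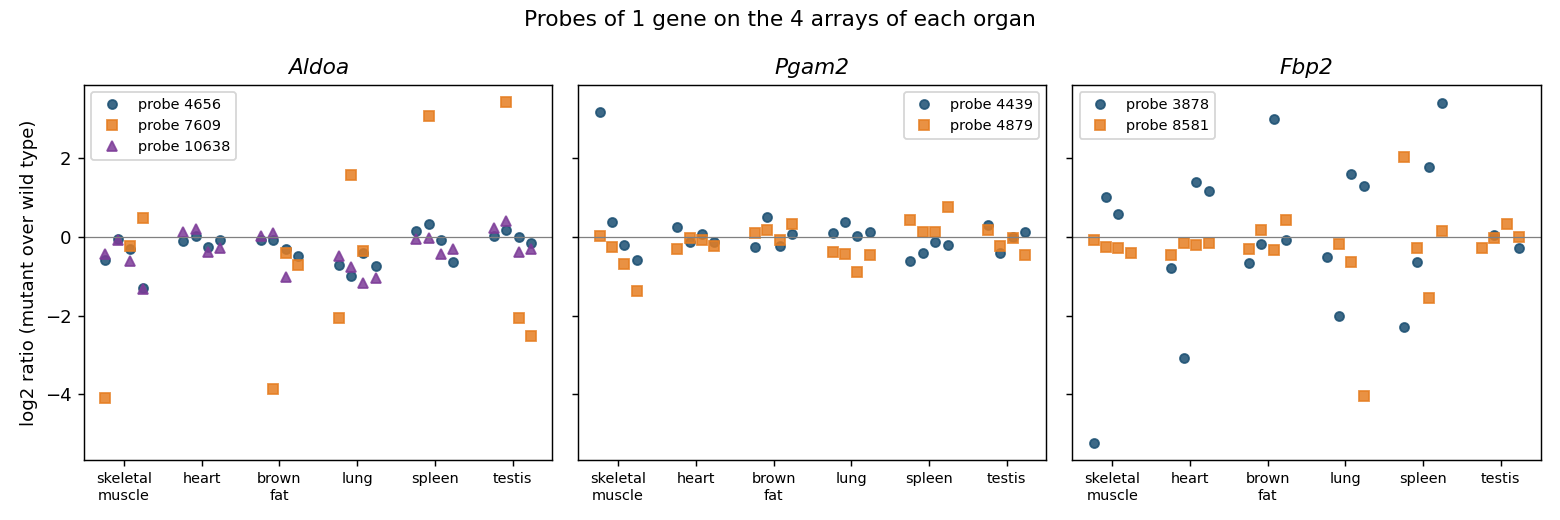
Log2 ratio of the mutant over the wild-type pool (vertical axis) for each probe of Aldoa, Pgam2 and Fbp2 on the 4 arrays of each organ (horizontal axis, replicates 1 to 4 from left to right). Probes 4656 and 10638 of Aldoa lie together and probe 7609 scatters from -4.08 to 3.44, while the Pgam2 probes lie on opposite sides of 0 in lung and spleen.

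Eno3 encodes the beta form of enolase, the muscle enzyme of the step before pyruvate kinase. Its probe had a value on 15 of 24 arrays, and on the skeletal muscle arrays it gave -1.82 on replicate 3 and 0.88 on replicate 4. These values have opposite signs and both come from arrays with the mutant pool in Cy3, so no test was made. In spleen 3 of 3 arrays were above 0 (2.68, 0.26 and 0.15) and in testis 3 of 3 below (-0.91, -0.069 and -1.97). The fits of 1.01 ± 0.81 and -0.96 ± 0.81 did not pass (limma adjusted p = 0.611 and 1). In spleen 8.01% of all rows were above 0 on every measured array.

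In brown adipose tissue Eno3 gave 0.021, -0.74 and 2.94, with a fit of 0.76 ± 0.81 that did not pass. The 2 heart values were -1.38 and -0.17 and the 2 lung values 3.08 and 1.64. Heart and lung had too few arrays for a test.

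By organ, the fitted ratios of the genes lay on both sides of 0. In skeletal muscle the 7 tested genes had a median of 0.058, against -0.16 for all rows. The medians were -0.09 in heart (all rows -0.017), 0.08 in brown adipose tissue (-0.075), -0.27 in lung (-0.011), 0.22 in spleen (-0.073) and -0.055 in testis (0.02). Of the 46 pairs that did not pass, 17 had an interval within a log2 size of 1, which is a doubling or halving, and for the rest a change of that size lies inside the interval. Between pairs of these genes measured together on at least 20 arrays, r ran from -0.16 to 0.44 with a median of 0.13 over 21 pairs, again as a description over arrays that share pools.

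The dye orientations often went opposite ways. Of the 47 tested pairs of gene and organ, 26 had means of the same sign in both orientations and 21 of opposite sign. A shared sign on every measured array was found in 12 of the 47 pairs, 4 above 0 and 8 below. Over all rows, arrays of the same organ had a median rank correlation of 0.116 where the dyes were the same way round and of -0.045 where they were exchanged.

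**Figure D4:**
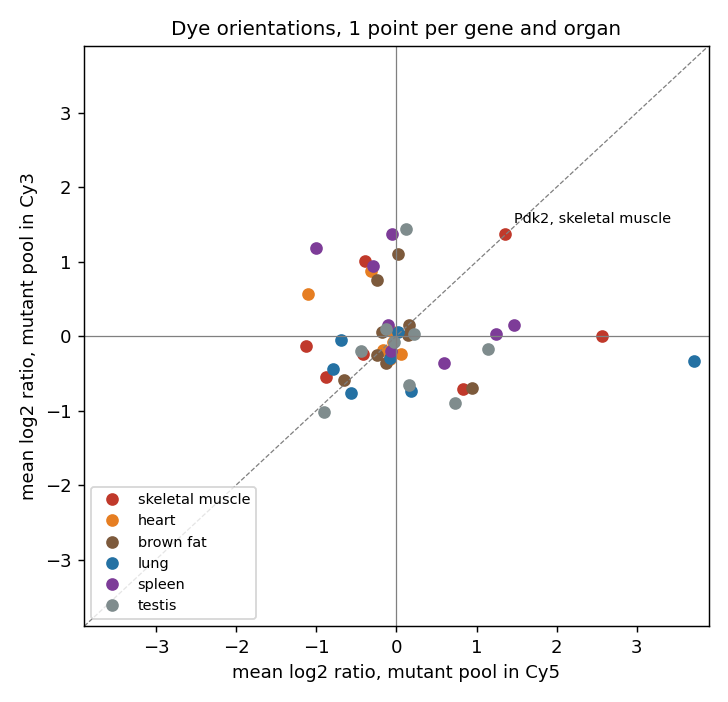
Mean log2 ratio of the mutant over the wild-type pool on arrays with the mutant pool in Cy5 (horizontal axis) and in Cy3 (vertical axis), 1 point per tested gene and organ, coloured by organ, with the line of equal values dashed. Array medians were not subtracted. Pdk2 in skeletal muscle lies on that line at 1.36 and 1.37, while 21 of the 47 points lie where the signs differ.

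Other genes of glucose and glycogen use were taken from 4 lists, of which 47 of 72 genes were on the platform: transporters and hexokinases, glycolysis, glycogen metabolism, and pyruvate use. Over the 6 organs 231 pairs of gene and organ could be tested and 0 passed by limma. Of all rows 5.58% passed in skeletal muscle, 1.53% in spleen, 0.0809% in lung and 0% in the other organs. At an unadjusted limma p of 0.05 the count was 18, or 7.79%. By organ it was 6 of 36 in skeletal muscle (20.2% of all rows), 5 of 33 in spleen (15.4%) and 4 of 39 in lung (6.62%). In testis it was 2 of 40 (3.62%), in heart 1 of 37 (2.05%) and in brown adipose tissue 0 of 46 (0.67%). In skeletal muscle 36 genes were tested, 15 above and 21 below 0, with a median ratio of -0.21 against -0.16 for all rows.

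Among the 5 transporters and hexokinases tested in muscle the median was -0.40, and no gene kept 1 sign on every array. Hk1, a hexokinase that traps glucose in the cell, had a fitted ratio of 1.09 ± 0.42 (limma adjusted p = 0.142), with values from -1.23 to 2.84. With a separate dye term for each organ Hk1 in skeletal muscle and Ldhb in spleen, a lactate dehydrogenase subunit, passed as higher.

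Among 12 glycolysis genes the median was -0.087. The gene with a shared sign on every array was Tpi1, triosephosphate isomerase, at -0.46 ± 0.38. Among 10 glycogen genes the median was -0.067, and the genes with a shared sign were Stbd1, a glycogen-binding protein, at -0.78 ± 0.47 and Pgm1, a phosphoglucomutase, at -0.72 ± 0.29. None of these passed (limma adjusted p = 0.546, 0.387 and 0.177 for Tpi1, Stbd1 and Pgm1).

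Among 9 genes of pyruvate use the median was -0.15, and 2 subunits of the pyruvate dehydrogenase complex, the enzyme that PDK2 switches off, kept 1 sign on every array. Pdhb, of the E1 component, was below 0 on 4 of 4 arrays at -0.87 ± 0.33 (limma adjusted p = 0.138). Dlat, the E2 component, was above 0 on 4 of 4 arrays at 0.89 ± 0.39 (adjusted p = 0.210). Neither passed. The paralogues Pdk1 and Pdk3 were at -0.44 ± 0.49 and -1.39 ± 0.93 and did not pass, with mixed signs on the arrays of both, and Pdk4 had no probe in the platform table.

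**Figure D5:**
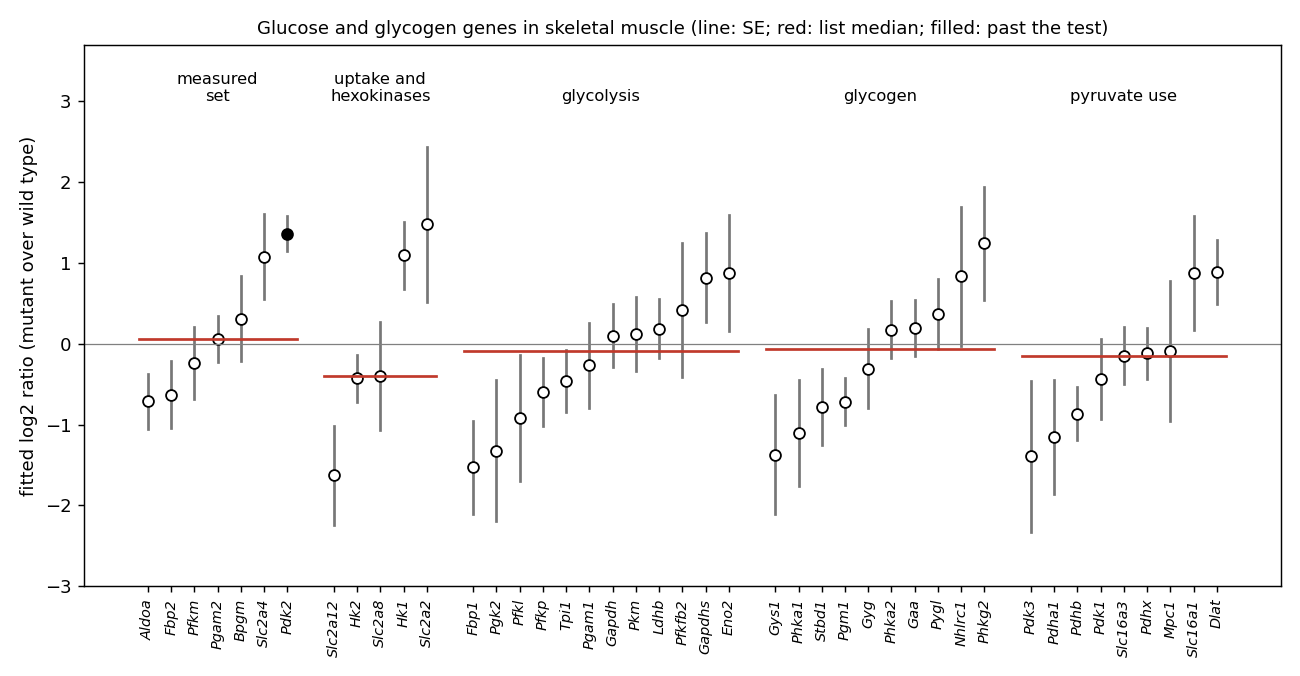
Fitted log2 ratios of the mutant over the wild-type pool in skeletal muscle (vertical axis) for the 7 tested genes of the set described here and the tested genes of 4 related lists (horizontal axis), with standard errors as lines, list medians in red and a filled point where the limma test was passed. The filled point is Pdk2 at 1.36, and the list medians lie between -0.40 and 0.058.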

How the data were processed

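The deposited value table of the authors holds 1 log2 ratio per probe and array. The sources used here do not say how the authors scaled, centred and background-corrected these values, or with which software. Base 2 was inferred from the 4874 of 392774 values that form a group of their own at sizes from 15.7 upward, and every value with a size above 12 was treated as missing. Per the labels' protocols, each labelling started from 20 µg of total RNA. Probes sharing a single symbol were averaged, which left 16148 rows. Ratios were tested with limma 3.58.1 (lmFit, eBayes) in R 4.3.3, in 1 model with 6 organ means and 1 dye term, with Benjamini-Hochberg adjustment within each organ at 0.05. The number of arrays limits the precision.

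The genes, lists and tests were chosen with earlier results of these data known. By rule the text names the 10 genes in every organ, list genes past the test or, in skeletal muscle, the 2 highest and 2 lowest of each list with 1 sign on every array, Nr4a1, the 3 most similar genes of a gene that passed, and up to 3 markers past the test. Hk1, Pdk1, Pdk3, Pdk4 and the markers in lung or not past the test fall outside it and were chosen after their values were seen. Other marker lists covered white fat, exocrine pancreas and germ cells. In skeletal muscle 0 of 5, 0 of 10 and 0 of 6 tested genes of these passed. In spleen 10 of 12 pancreas genes passed as lower. Alternatives changed centring, scaling, weights, the dye term, the sign, the size limit, the missing-value filter, the probe choice, a replicate block and single arrays.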

Additional observations from a re-analysis of the deposited data

Results flagged for a closer look

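Eno3 was above 0 on 3 of 3 spleen arrays (mean 1.03) and below 0 on 3 of 3 testis arrays (mean -0.98), a difference of 2.01 in log2 ratio for spleen minus testis. The difference was not tested, and neither ratio passed the test by itself. Probe 6803 of Slc2a4 had a value of 16.123 on heart replicate 2, in the separate mode of very large values that was treated as missing. In the 36 groups of gene and organ with values on all 4 arrays, no array stood apart by Dixon's test. Groups with fewer values were not tested for this, among them Slc2a4 in lung, Pfkm in testis and all groups of Pygm and Eno3.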

How the results depend on the processing

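Of 827 recomputed ratios of the 9 genes under the alternatives, 823 kept their side of the test's threshold. Only 19 of the 827 are of the pair that had passed, Pdk2 in skeletal muscle, and 15 of these passed. The rest are of pairs that had not passed, so their keeping that side says little. In 73 of the 827, all of genes and organs that had not passed, the ratio took the opposite sign, most often with the sign turned on arrays with the mutant pool in Cy3. The 4 that lost a call all concern Pdk2 in skeletal muscle: 1.01 with arrays centred and scaled (limma adjusted p = 0.0698), 1.36 with each organ fitted by itself (0.590) and 1.36 with 1 weight per organ from complete rows (0.0733, chosen after seeing the data), and -0.0048 with the sign turned where the mutant pool was in Cy3. Under these 4 settings the count of genes past the test was 0, in skeletal muscle and over the 6 organs, against 1. Without each muscle replicate in turn the Pdk2 ratio ran from 1.18 to 1.53 and passed, and it passed without replicates 2 and 4 (1.63, adjusted p = 0.0033, chosen after seeing the data). The count of list genes past the test over the 6 organs, 0 in the model as described, was 2 with a dye term per organ (Hk1 and Ldhb, above) and 4 with the sign turned (Slc2a12, Hk1, Pfkp and Phkg2 in skeletal muscle, all lower). The cause was not tested. The rows past the test in skeletal muscle numbered 668, against 903 with the sign turned, 903 with the probe with most values, 50 with arrays scaled, 196 with array weights, 77 and 36 with 1 weight per organ from all or from complete rows, 300 without replicates 2 and 4, and 0 with muscle fitted by itself.

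Replicate numbers do not pair the arrays: the median correlation of same-numbered arrays from different organs was 0.0437, and at 0.0032 once the dye orientation was removed. Of 24 arrays, 12 correlated best with their own number, and 6 once the dye orientation was removed. With the replicate number as a block, Pdk2 in skeletal muscle stayed at 1.36 (limma adjusted p = 0.0016), and the rows past the test there numbered 572. These p-values leave out differences between animals, and ratios show nothing of RNA levels.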
